A study of Mus musculus with 7 samples.

Results

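The genes described here are 31 known targets of the hypoxia-inducible factors (HIF) that are not glycolytic enzymes, followed through 7 RNA sequencing libraries of mouse fetal liver. They act in collagen and matrix processing (6 genes), mitochondria (4), chromatin and transcription (6), growth control and stress (5), signalling and the cell surface (6) and lipid and glycogen storage (4). The members were chosen by name from what is known of hypoxia-induced genes, but with earlier results of these data known. Counts and medians over the list therefore describe it and are not an independent test. Each Ensembl identifier was matched to its GENCODE symbol on the mm10 build. All 31 matched 1 identifier among the 39017 genes counted, and all 31 passed the filter on low counts that left 15800 genes for testing.

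HIF is a pair of an oxygen-labile alpha subunit and its stable partner ARNT. In oxygen, the prolyl hydroxylases of the Egln genes mark the alpha subunit for destruction through VHL. In low oxygen the pair accumulates in the nucleus and binds a short core sequence near genes for glucose use, blood vessel growth, collagen maturation, mitochondrial adjustment and lipid storage. The fetal liver is the main site of red cell formation at this stage, and its erythroid precursors mature around macrophages among hepatocyte precursors, endothelial cells and mesenchymal cells.

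The study compared mRNA of fetal livers at E12.5, on the C57BL/6 strain, in 3 genotypes of Taf10, which encodes a subunit of the TFIID and SAGA complexes of RNA polymerase II transcription. The 2 TAF10KO livers carried EpoCre, a Cre recombinase expressed from the erythropoietin receptor gene and so active in erythroid cells, together with lox-flanked Taf10. The sources differ on those alleles: the titles read lox/lox, and the design text of the series reads lox/KO. The 3 TAF10HET livers also carried EpoCre, and their Taf10 alleles were lox/wt in replicate 1 and wt/ko in replicates 2 and 3. The 2 WT livers were lox/lox without Cre, so EpoCre and the loss of Taf10 cannot be told apart in TAF10KO against WT. RNA came from cell suspensions of the whole liver, in which only the cells that express the Cre can lose a lox allele. A code that reads as a date stands in each title. The first such code covers replicate 1 of each genotype, and the second covers WT replicate 2, TAF10KO replicate 2 and TAF10HET replicates 2 and 3. Allele type within TAF10HET and date code cannot be told apart. The labels do not state what the code dates or that each library is 1 embryo, so p-values measure the spread between these libraries only.

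Reads assigned to genes numbered 18008391 to 43401474 per library. Taf10 itself was counted at 72.0 and 96.5 CPM (counts scaled to the library's total) in the WT pair. The TAF10HET livers had 78.1, 63.7 and 63.0 CPM, and the TAF10KO livers 37.8 and 43.85 CPM. Both TAF10KO libraries lay below the other 5, with a log2 difference from WT of -1.04 (SE 0.168, adjusted p = 0.0542 by edgeR's quasi-likelihood test with Benjamini-Hochberg adjustment). The counts include exons outside a deleted part and RNA of cells without the Cre, so this level does not measure the deletion. Every marker fixed for liver and blood cells had reads, and the 10 erythroid markers summed to 8546 to 16070 CPM and the 10 hepatocyte markers to 12620 to 20150 CPM. Xist marked TAF10HET replicate 1 and TAF10KO replicate 2 as male. In whole tissue, fewer cells of a type and less RNA per cell cannot be told apart.

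Of the 31 genes 6 were higher in TAF10KO than in WT past the threshold, namely Ndufa4l2, Ankrd37, Bhlhe40, P4ha1, Ak4 and Kdm3a. They rose by 1.61-fold (Kdm3a) to 9.04-fold (Ndufa4l2), and none of the 31 fell. The call rests on edgeR's quasi-likelihood test with genotype and date code as terms and an adjusted p under 0.05 over all 15800 genes. By that rule 0.481% of all genes were called higher and 0.127% lower, against 6 and 0 of the members. The fitted difference was above 0 for 30 of the 31 genes, and Plin2 was the exception. The median log2 difference of the members was 0.61, with 0.62 within the first date code and 0.63 within the second, and the median over all genes tested was 0.03.

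The libraries themselves show the same split. Both TAF10KO libraries lay above both WT libraries for 20 of the 31 genes, against 15.2% of all genes tested, and below them for 1, against 14.5%. They lay above all 5 other libraries for 15 genes (7.48% of all genes) and below all 5 for 1 (7.18%). TAF10KO was above WT within both date codes for 26 members (34.3% of all genes) and below within both for 1 (30.4%). The CPM of the 31 genes together summed to 840 to 915 in the 5 WT and TAF10HET libraries, and to 1115 and 1270 in TAF10KO replicates 1 and 2. Among markers of other cells, 1 of 10 erythroid markers (Tfrc) fell and the erythroid median was -0.27. The medians were -0.24 for hepatocyte, -0.48 for macrophage, 0.69 for neutrophil and 0.30 for megakaryocyte markers, with 0 called in each list, and their part in the member differences was not tested.

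**Figure D1:**
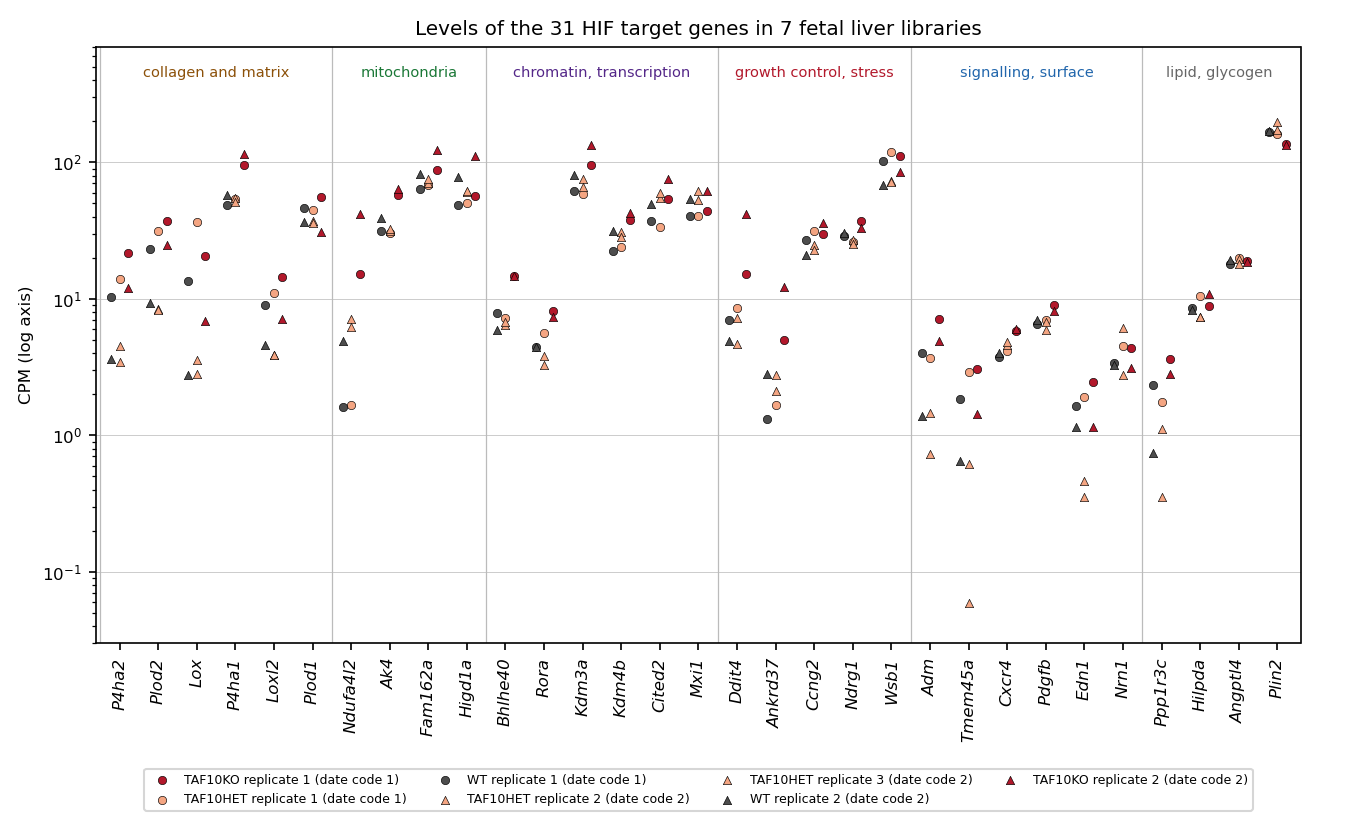
Level of each of the 31 genes in each of the 7 libraries, in CPM on a log axis, grouped by role. Each point is 1 library, coloured by genotype, with circles for the first date code and triangles for the second. The TAF10KO points stand above all others for 15 genes, among them Ndufa4l2, Ankrd37 and P4ha1, and below all others for Plin2. In the collagen and matrix genes, circles stand above triangles within a genotype, except in P4ha1.

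These calls depended on which libraries entered the fit. Without WT replicate 1 or without WT replicate 2, 0 of the 31 genes were called higher in TAF10KO than in WT, and in both cases 0 of all genes tested were called. The count was 2 without TAF10HET replicate 2, 1 without TAF10HET replicate 3 and 16 without TAF10HET replicate 1. In those fits 26, 12 and 515 of all genes were called higher, so member calls and all calls moved together. With genotype as the only term edgeR called 0 members and 0 of all genes, and 11 members had an unadjusted p under 0.05, against 4.61% of all genes. A genotype left with 1 library is taken to vary like the others in these fits. DESeq2 called 12 members with the date code and 5 without it. How many of all genes DESeq2 called is not given here, so these counts are not read as a result about the members. The sizes moved less than the calls: over the 7 fits that left out 1 library the median of the members ran from 0.50 to 0.77.

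Promoters of the members are shown because the HIF core sequence can be looked for in them. RefSeq promoters (assembly GRCm38.p6, the build of the counts), from 250 bases before to 50 bases after a gene's start, were at hand for 21 of the 31 genes, with 30 promoters. The core was searched as ACGTG or GCGTG on either strand, which reads CACGT or CACGC where it lies on the other strand, and overlapping matches were taken as 1 site. The palindrome CACGTG, the E-box that MYC-type factors also bind, contains the core. Lower case marks the promoter, capitals mark the core matches, and each sequence runs 5′ to 3′ on the strand of its gene. The set holds 4 of the 6 genes that rose against WT, Fam162a, which rose against TAF10HET, and Plin2, whose TAF10KO libraries lay below the rest.
Ankrd37 (chr8:45999801-46000100, minus strand): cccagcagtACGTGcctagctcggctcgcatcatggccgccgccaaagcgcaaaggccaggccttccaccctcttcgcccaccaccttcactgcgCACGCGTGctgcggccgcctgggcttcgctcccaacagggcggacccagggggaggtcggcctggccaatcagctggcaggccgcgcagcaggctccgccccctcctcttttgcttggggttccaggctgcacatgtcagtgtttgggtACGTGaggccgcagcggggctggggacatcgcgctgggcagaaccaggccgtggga
P4ha1 (chr10:59323046-59323345, plus strand): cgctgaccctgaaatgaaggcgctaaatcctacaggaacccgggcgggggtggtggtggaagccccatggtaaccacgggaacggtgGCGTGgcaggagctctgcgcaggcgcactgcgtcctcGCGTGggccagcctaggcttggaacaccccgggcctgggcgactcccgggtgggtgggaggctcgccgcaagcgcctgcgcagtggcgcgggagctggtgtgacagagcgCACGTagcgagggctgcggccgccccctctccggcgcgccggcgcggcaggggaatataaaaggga
Ak4 (chr4:101419039-101419338, plus strand): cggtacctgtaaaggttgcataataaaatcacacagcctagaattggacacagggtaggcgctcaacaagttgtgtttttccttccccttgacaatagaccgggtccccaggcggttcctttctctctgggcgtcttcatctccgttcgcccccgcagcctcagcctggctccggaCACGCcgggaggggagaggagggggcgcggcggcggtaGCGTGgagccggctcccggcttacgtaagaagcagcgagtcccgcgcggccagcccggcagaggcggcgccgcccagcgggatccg
Kdm3a (chr6:71632868-71633167, minus strand): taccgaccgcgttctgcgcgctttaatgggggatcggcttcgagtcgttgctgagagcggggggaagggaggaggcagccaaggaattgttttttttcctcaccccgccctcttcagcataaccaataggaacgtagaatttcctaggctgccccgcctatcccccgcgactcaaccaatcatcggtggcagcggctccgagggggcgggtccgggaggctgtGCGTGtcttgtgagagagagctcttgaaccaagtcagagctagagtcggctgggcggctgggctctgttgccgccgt
Fam162a (chr16:36071512-36071811, minus strand): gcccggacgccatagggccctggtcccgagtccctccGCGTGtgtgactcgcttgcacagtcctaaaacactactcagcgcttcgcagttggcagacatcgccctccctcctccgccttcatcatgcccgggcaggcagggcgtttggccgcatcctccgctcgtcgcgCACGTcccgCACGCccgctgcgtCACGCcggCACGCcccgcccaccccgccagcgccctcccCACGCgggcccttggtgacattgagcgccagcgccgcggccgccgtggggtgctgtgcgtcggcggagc
Plin2 (chr4:86670010-86670309, minus strand): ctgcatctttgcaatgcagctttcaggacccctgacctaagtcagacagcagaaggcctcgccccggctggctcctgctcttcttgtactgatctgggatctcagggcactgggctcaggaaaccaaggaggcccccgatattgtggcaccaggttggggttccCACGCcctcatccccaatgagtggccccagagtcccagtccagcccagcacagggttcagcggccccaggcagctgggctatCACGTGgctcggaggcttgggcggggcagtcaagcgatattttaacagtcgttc

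The Fam162a promoter holds 6 core sites, those of Ankrd37 and P4ha1 hold 3 each, the first of 4 Ak4 promoters holds 2, and the first of 3 Kdm3a promoters holds 1. The Plin2 promoter holds 2, one of them within CACGTG. A core site was found in 26 of the 30 member promoters (86.7%), and every one of the 21 genes had it in at least 1 promoter. Each promoter was counted, also where those of 1 gene overlap, as promoters 1, 2 and 3 of Ak4 do. The shares are therefore not shares of genes. Of all 32841 promoters of this length 43.8% held it, and of those with at least 10 CG dinucleotides 68.4% did. Member promoters had a median of 25 CG dinucleotides against 7 over all promoters. The share was 76.9% for the promoters of 17 glycolytic HIF targets and 55.8% for those of the members' paralogues. CACGTG was in 5 of the 30 member promoters (16.7%) and in 7.15% of all. A match is a description of letters and not a measured binding site.

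The mitochondrial genes held the largest difference of all 31. Ndufa4l2 (ENSMUSG00000040280, chromosome 10, 127514967 to 127517154) encodes a relative of a respiratory chain subunit that lowers oxygen use when HIF induces it. In the order of their replicates, the WT libraries held 1.60 and 4.87 CPM, the TAF10HET libraries 1.66, 7.11 and 6.22 CPM and the TAF10KO libraries 15.2 and 41.8 CPM. Each TAF10KO library lay above every WT and TAF10HET library, and within every genotype the second date code lay above the first. TAF10KO exceeded WT by 3.18 log2 units (SE 0.176, adjusted p = 0.00314 by edgeR), with 3.19 within the first date code and 3.08 within the second. Over the fits that left out 1 library it ran from 3.02 to 3.34, with adjusted p = 0.0653 without WT replicate 1 and 0.104 without WT replicate 2.

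Ak4 (ENSMUSG00000028527, chromosome 4, 101419277 to 101466995), the adenylate kinase of the mitochondrial matrix, stood at 31.6 and 38.8 CPM in WT, at 30.6, 31.3 and 32.6 CPM in TAF10HET and at 57.5 and 63.7 CPM in TAF10KO. The 5 WT and TAF10HET values lay close together and both TAF10KO values above them. It rose by 0.79 on the log2 scale against WT (SE 0.0909, adjusted p = 0.0204 by edgeR), a 1.73-fold difference. Fam162a (ENSMUSG00000003955, chromosome 16, 36043761 to 36071594), a mitochondrial protein tied to cell death in hypoxia, had the highest level per exon length of the 31 genes, at 97.9 RPKM (CPM per kilobase of exon) over the groups. It was at 63.8 and 82.1 CPM in WT, at 68.0, 70.7 and 76.0 CPM in TAF10HET and at 87.6 and 123 CPM in TAF10KO. Its difference from WT, 0.52 (SE 0.107, adjusted p = 0.0821), missed the threshold in that fit, although both TAF10KO libraries lay above the other 5. Of the exon bases of Fam162a 19.8% also belong to Wdr5b on the opposite strand, and reads there could not be told apart if strand was not used; Wdr5b differed by -0.27 (adjusted p = 0.487). Higd1a, an inner membrane protein that supports respiratory complexes, was at 48.9, 50.1 and 57.1 CPM in the WT, TAF10HET and TAF10KO libraries of the first code. On the second it was at 78.0 CPM in WT, 60.8 and 62.0 in TAF10HET and 111 in TAF10KO. TAF10KO was highest within each code, and every library of the second code lay above those of the first. Its difference was 0.38 from WT (SE 0.149, adjusted p = 0.249) and 0.58 from TAF10HET (SE 0.135, adjusted p = 0.0904).

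The collagen and matrix genes had the highest median difference of TAF10KO from WT among the 6 roles, 1.01, with 1 of 6 called. Within the codes their median was 0.67 and 1.14. On the first code the chromatin and transcription genes were slightly higher, at 0.69. P4ha1 (ENSMUSG00000019916, chromosome 10, 59323296 to 59373304) is a catalytic subunit of the prolyl hydroxylase that stabilises collagen in the endoplasmic reticulum. Its level was 48.4 and 57.6 CPM in WT, 54.3, 55.0 and 51.3 CPM in TAF10HET, and 96.1 and 115 CPM in TAF10KO. The ranges did not overlap, and the level rose by 0.99 on the log2 scale (SE 0.098, adjusted p = 0.0126 by edgeR), a 1.99-fold difference, with 0.99 within each date code.

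The other 5 matrix genes were called by date code and not between TAF10KO and WT. P4ha2, the sister subunit of P4ha1, was at 10.35 CPM in WT, 14.0 in TAF10HET and 21.75 in TAF10KO on the first code. On the second it was at 3.62 in WT, 4.48 and 3.46 in TAF10HET and 12.0 in TAF10KO. TAF10KO was highest within each code, and the fitted difference from WT was 1.41 (SE 0.246, adjusted p = 0.0596 by edgeR). Plod2, a lysyl hydroxylase that directs collagen cross-links, had the same layout. It was at 23.1 CPM in WT, 31.2 in TAF10HET and 37.4 in TAF10KO on the first code, and on the second at 9.37 CPM in WT, 8.39 and 8.33 in TAF10HET and 24.8 in TAF10KO. Its difference from WT was 1.09 (SE 0.291, adjusted p = 0.145).

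Lox, the lysyl oxidase that cross-links collagen and elastin, was at 13.6 CPM in WT, 36.5 in TAF10HET and 20.7 in TAF10KO on the first code, and on the second at 2.78 CPM in WT, 3.56 and 2.82 in TAF10HET and 6.87 in TAF10KO. TAF10HET replicate 1 was the highest library, so TAF10KO differed from TAF10HET by -0.82 within the first code and by 1.10 within the second. Loxl2, a related oxidase, ran from 3.87 to 14.3 CPM, and its difference from WT was 0.66 (SE 0.175, adjusted p = 0.137). Plod1, another lysyl hydroxylase, differed from WT by 0.27 within the first code and by -0.24 within the second.

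Markers of mesenchymal cells, the main source of collagen in this organ, were positive in TAF10KO minus WT (10 of 10), as were the 6 matrix genes. By date code all 10 markers and 5 of the 6 matrix genes were negative, and P4ha1 was at 0.14. Their 10 genes summed to 1459, 2634 and 1691 CPM in WT, TAF10HET and TAF10KO on the first code. On the second code they summed to 202 in WT, 227 and 225 in TAF10HET and 363 in TAF10KO. Between TAF10KO and WT their median log2 difference was 0.55, with 0.17 and 0.86 within the codes and 0 of 10 called, and no marker was without reads. Between TAF10KO and TAF10HET the 6 matrix genes were all positive, with a median of 0.83, and 0.355 and 1.10 within the codes. Of the markers 6 were positive and 4 negative, with a median of 0.09, and -0.61 and 0.65 within the codes. Both lists had the larger value on the second code, and 4 matrix genes and 0 markers were positive on both codes. The 10 endothelial markers summed to 425 CPM in WT and 558 in TAF10KO on the first code and to 213 and 265 CPM on the second. Between TAF10KO and WT their median log2 difference was 0.43, with 9 of 10 positive and 9 higher on both codes. Of these markers 1 (Pecam1) was called higher. The part of mesenchymal and endothelial cells in the matrix result and in the other member differences was not tested.

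**Figure D2:**
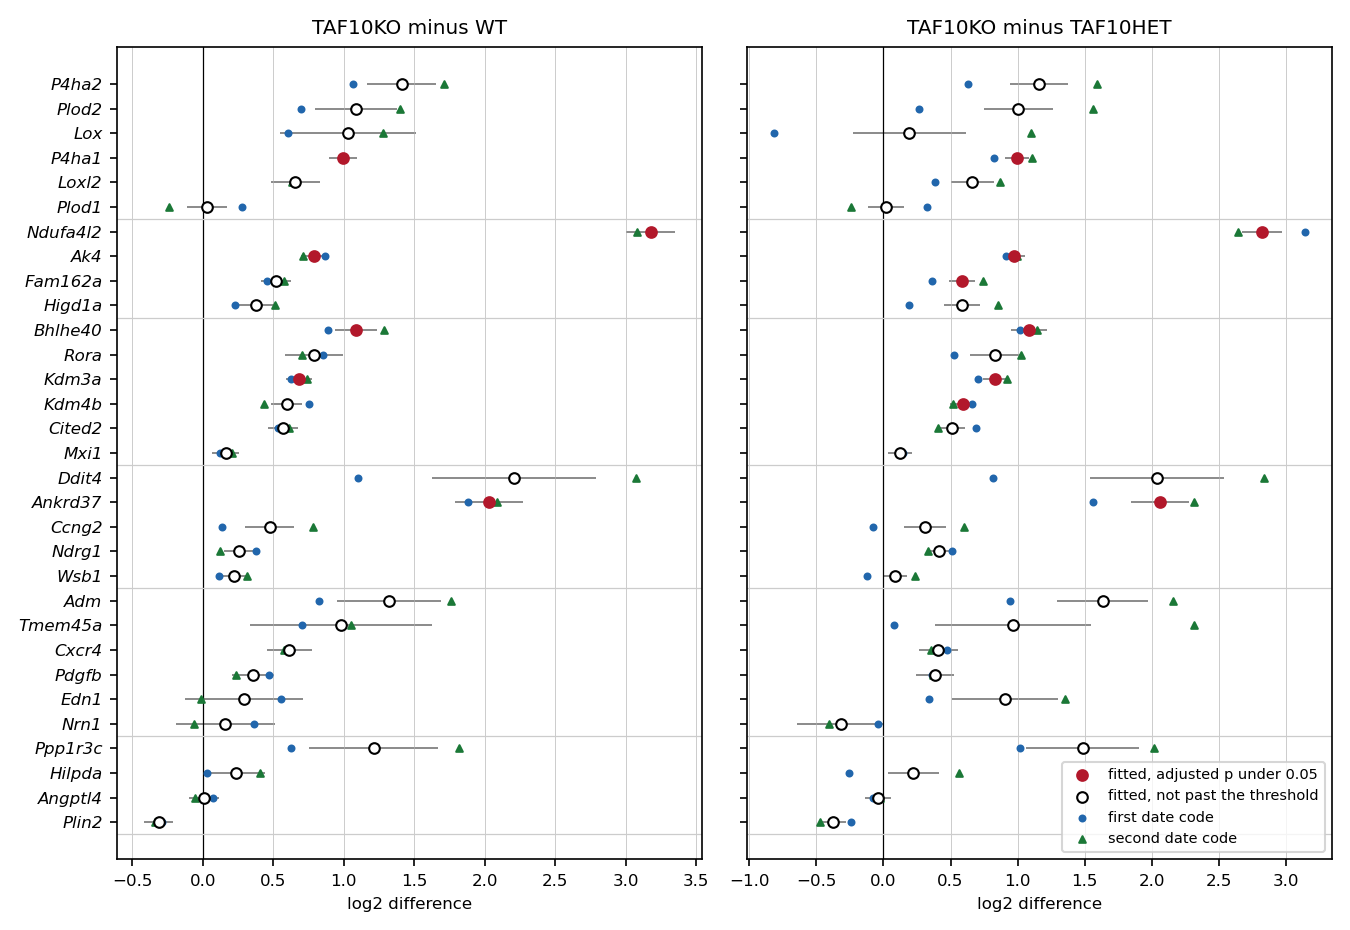
Fitted log2 differences of the 31 genes, TAF10KO minus WT on the left and TAF10KO minus TAF10HET on the right. Large circles with bars give the fitted value and its SE over all 7 libraries, filled where the adjusted p was under 0.05, and small symbols give the difference within each date code. Filled circles number 6 on the left and 8 on the right, and for P4ha2, Plod2 and Lox the difference on the second code is the larger one in both panels.

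Among genes of chromatin and transcription 2 of 6 rose against WT, and all 6 had fitted differences above 0. Kdm3a (ENSMUSG00000053470, chromosome 6, 71588972 to 71632990), a histone demethylase that itself needs oxygen, was at 61.9 and 80.5 CPM in WT, at 58.4, 75.7 and 66.3 CPM in TAF10HET and at 95.4 and 134 CPM in TAF10KO. Both TAF10KO libraries lay above the rest, and the difference was 0.68 (SE 0.0943, adjusted p = 0.0376 by edgeR). Bhlhe40 (ENSMUSG00000030103, chromosome 6, 108660629 to 108666925), a repressor of the basic helix-loop-helix family, was at 7.87 and 5.94 CPM in WT, at 7.19, 6.38 and 6.74 CPM in TAF10HET and at 14.6 CPM in each TAF10KO library. It rose by 1.09 on the log2 scale (SE 0.147, adjusted p = 0.0345), and its date difference of -0.17 was not called.

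Kdm4b, another oxygen-dependent histone demethylase, was at 22.5 and 31.4 CPM in WT, at 24.0 to 30.8 CPM in TAF10HET and at 38.0 and 42.4 CPM in TAF10KO. Its libraries did not overlap either, with a difference from WT of 0.59 (SE 0.108, adjusted p = 0.0636 by edgeR). Cited2, a coregulator that competes with HIF for its coactivators, had a like difference of 0.57 (SE 0.107, adjusted p = 0.0675), and was at 54.3 CPM in TAF10KO replicate 1, inside the TAF10HET range of 33.6 to 59.2 CPM. Rora, a nuclear receptor, had the lowest level per exon length of all 31 genes, 0.418 RPKM. It was at 4.45 CPM in both WT libraries, at 3.28 to 5.59 CPM in TAF10HET and at 8.09 and 7.30 CPM in TAF10KO, with a difference of 0.79 (SE 0.205, adjusted p = 0.131). Mxi1, an antagonist of MYC, differed from WT by 0.16 (SE 0.0964, adjusted p = 0.417), and its 4 libraries of the second code lay above the 3 of the first.

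Of the 5 genes of growth control and stress, Ankrd37 alone was called against WT. Ankrd37 (ENSMUSG00000050914, chromosome 8, 45996902 to 46005707), an ankyrin repeat protein, was at 1.31 and 2.83 CPM in WT, at 1.66, 2.75 and 2.11 CPM in TAF10HET and at 5.02 and 12.2 CPM in TAF10KO. Both TAF10KO libraries lay above the other 5, and the level rose 4.08-fold (log2 difference 2.03, SE 0.241, adjusted p = 0.0214 by edgeR). Its lowest library held 32 reads, and 22.7% of its exon bases also belong to Lrp2bp and 3.70% to Ufsp2 on the opposite strand. Reads there could not be told apart if strand was not used. The differences of Lrp2bp and Ufsp2 are not given here, and their part in the rise of Ankrd37 was not tested.

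Ddit4, an inhibitor of mTOR signalling that answers to hypoxia and to other stresses, was at 7.03 and 4.87 CPM in WT, at 8.59, 7.19 and 4.63 CPM in TAF10HET and at 15.2 and 41.6 CPM in TAF10KO. Both TAF10KO values stood above the rest but far from each other. The fitted log2 difference from WT was 2.20 (SE 0.582, adjusted p = 0.164 by edgeR), with 1.10 within the first code and 3.08 within the second. DESeq2 called it with the date code and without it. The interaction of genotype with date code was 1.99 log2 units for Ddit4 (adjusted p = 0.0575), in a fit with 1 residual degree of freedom. That fit called 0 of the 31 genes, against 1.15% of all genes, and 7 had an unadjusted p under 0.05, against 15.2%.

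Ndrg1, a stress-responsive protein of differentiating cells, was at 28.8 and 30.2 CPM in WT, at 26.2, 26.9 and 25.4 CPM in TAF10HET and at 37.4 and 32.9 CPM in TAF10KO. The 3 groups did not overlap, and TAF10KO exceeded WT by 0.25 (SE 0.101, adjusted p = 0.252 by edgeR). Ccng2, a cyclin that restrains the cell cycle, differed from WT by 0.14 on the first code and 0.78 on the second. Wsb1, a substrate receptor of a ubiquitin ligase, ran from 68.4 to 120 CPM with all libraries of the second code below those of the first, and its difference from WT was 0.22 (adjusted p = 0.302).

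None of the 6 signalling and surface genes was called between TAF10KO and WT, and their median difference was 0.48. Their levels were low, under 10 CPM in every library. Adm, the vasodilator peptide adrenomedullin, was at 4.01 and 1.39 CPM in WT, at 3.67, 0.735 and 1.47 CPM in TAF10HET and at 7.14 and 4.89 CPM in TAF10KO. Both TAF10KO libraries were the highest, with a difference from WT of 1.32 (SE 0.372, adjusted p = 0.148 by edgeR). Cxcr4, a chemokine receptor of blood progenitors, was at 3.72 and 3.99 CPM in WT, at 4.14, 4.56 and 4.81 CPM in TAF10HET and at 5.78 and 6.00 CPM in TAF10KO. Its 3 groups stood in that order without overlap, and its difference from WT was 0.61 (SE 0.159, adjusted p = 0.132).

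Pdgfb, a growth factor for pericytes, was at 9.07 and 8.20 CPM in TAF10KO, above the 5.92 to 7.04 CPM of the other libraries, with a difference from WT of 0.36 (SE 0.151, adjusted p = 0.277 by edgeR). Edn1, the vasoconstrictor endothelin, ran from 0.352 to 2.44 CPM and differed from WT by 0.56 on the first code and -0.01 on the second. Nrn1, a membrane-anchored protein first known from neurons, differed by 0.36 and -0.07, and 22.3% of its exon bases also belong to Fars2 on the opposite strand. Tmem45a, a transmembrane protein, ran from 0.0586 CPM, which was 1 read, to 3.07 CPM, and its difference of 0.98 had an SE of 0.648. The groups of Edn1, Nrn1 and Tmem45a overlapped.

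The lipid and glycogen genes had the lowest median of the 6 roles, 0.12, with 0 of 4 called. Plin2, the coat protein of lipid droplets, was the one member with a fitted difference below 0. It was at 166 and 169 CPM in WT, at 160, 199 and 172 CPM in TAF10HET and at 136 and 134 CPM in TAF10KO. Both TAF10KO libraries lay below all others, with a difference from WT of -0.31 (SE 0.105, adjusted p = 0.195 by edgeR), within codes -0.29 and -0.34. With embryo sex as a further term the test called Plin2 lower.

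Angptl4, a secreted inhibitor of lipoprotein lipase, stood between 17.9 and 19.9 CPM in all 7 libraries, and its difference from WT was 0.01 (SE 0.106). Hilpda, a lipid droplet protein that holds back fat breakdown, differed by 0.23 (SE 0.206, adjusted p = 0.584 by edgeR), with TAF10KO libraries at 8.80 and 10.9 CPM against 8.64 and 8.21 CPM in WT. Ppp1r3c, which brings a phosphatase to glycogen, was at 2.33 and 0.742 CPM in WT, at 1.76, 1.12 and 0.352 CPM in TAF10HET and at 3.64 and 2.80 CPM in TAF10KO. Its TAF10KO libraries were the highest, but its lowest library held 6 reads, and the difference of 1.21 had an SE of 0.459 (adjusted p = 0.237).

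Against TAF10HET, which also carried EpoCre, 8 members were higher in TAF10KO: the 6 named above, Kdm4b and Fam162a. By the same rule 1.15% of all genes were called higher and 0.456% lower, against 8 and 0 of the members. The comparison uses the same TAF10KO libraries as the one with WT, so the 2 are not independent. Ndufa4l2 differed by 2.82 (SE 0.150, adjusted p = 0.00125 by edgeR), Ak4 by 0.97 (SE 0.0826, adjusted p = 0.00457) and P4ha1 by 0.99 (SE 0.0882, adjusted p = 0.00475). Ankrd37 differed by 2.06 and Kdm3a by 0.83 (both adjusted p = 0.00963), Bhlhe40 by 1.08 (0.0154), Fam162a by 0.59 (adjusted p = 0.0358) and Kdm4b by 0.59 (adjusted p = 0.0369). The median of the members was 0.59, with 0.38 within the first code and 0.87 within the second, and that of all genes was 0.003. Among cell type markers the neutrophil genes Mpo and Prtn3 were called higher, with all 9 tested neutrophil markers higher on both codes and a median of 0.67. The endothelial genes Pecam1 and Kdr were called higher as well (list median 0.34), and the macrophage gene C1qa (list median -0.56) and the erythroid gene Tfrc (list median -0.30) lower. Their part in the member differences was not tested. The number of members called higher was 1 without TAF10HET replicate 3, 4 without TAF10HET replicate 2 and 15 without TAF10HET replicate 1. In those fits 12, 31 and 275 of all genes were called higher. Without either WT replicate the number of members called fell. With genotype as the only term it was 0, and 12 had an unadjusted p under 0.05, against 5.41% of all genes.

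Between TAF10HET and WT no member was called in either direction (0.00633% of all genes higher and 0% lower), and every member had an adjusted p of 0.999 in edgeR's test. With genotype as the only term 0 members had an unadjusted p under 0.05, against 0.608% of all genes, and DESeq2 called 0. The median difference was 0.01, the same as over all genes, with 0.15 within the first code and -0.12 within the second. Of the 31 genes 25 lay within 0.25 log2 units of 0, and 8 were above WT and 6 below it on both codes. The shares of all genes by these rules were not counted, so these counts are not read as a trait of the members. The largest differences were 0.83 for Lox (SE 0.455), -0.61 for Edn1 (SE 0.417) and 0.48 for Nrn1 (SE 0.333). Cxcr4 stood above WT and Ndrg1 below WT in all 3 TAF10HET libraries, but the share of all genes so separated was not counted. This separation is therefore not read as a trait of these genes.

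More members were called by date code than by genotype, as were more of all genes. Against the first code, 8 of the 31 genes (25.8%) were higher in the second and 9 (29%) were lower. Of all genes 18.7% were called higher and 22.7% lower, so the member shares lay near those of all genes. Higher were Ndufa4l2 (log2 difference 1.66, SE 0.140, adjusted p = 0.000298 by edgeR), Ankrd37 (1.0), Higd1a (0.61), Cited2 (0.56), Mxi1 (0.47), Kdm3a (0.38), Kdm4b (0.31) and Fam162a (0.30). These include 3 of the 4 mitochondrial and 4 of the 6 chromatin and transcription genes. Lower were 5 of the 6 matrix genes, with differences of -2.56 for Lox (SE 0.362, adjusted p = 0.00375), -1.41 for P4ha2, -1.31 for Plod2, -1.19 for Loxl2 and -0.47 for Plod1. Tmem45a (-1.87), Edn1 (-1.29), Adm (-1.25) and Wsb1 (-0.58) were lower too. All 4 libraries of the second code lay above the 3 of the first for Mxi1 and Higd1a (2 members, 18.8% of all genes) and below them for Plod1, Lox, Loxl2, Tmem45a, Edn1 and Wsb1 (6 members, 23.6%). The number called higher fell without either WT replicate, among the members and among all genes.

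Cell type markers also differed by date code. All 10 mesenchymal and all 10 endothelial markers were lower on the second code, with medians of -2.59 and -0.96, and 9 of 10 erythroid markers were higher, with a median of 0.57. Of the hepatocyte markers 8 of 10 were called lower (median -0.45), and of the macrophage markers 6 of 10 (median -0.59). Called higher were 3 of 9 neutrophil markers (Mpo, Prtn3 and S100a9, list median 0.23). The part of cell makeup in the date differences of the members was not tested. P4ha1 (0.14), Ak4 (0.16) and Bhlhe40 (-0.17) were not called by date, and of the 6 genes that rose in TAF10KO they had the date differences closest to 0.

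**Figure D3:**
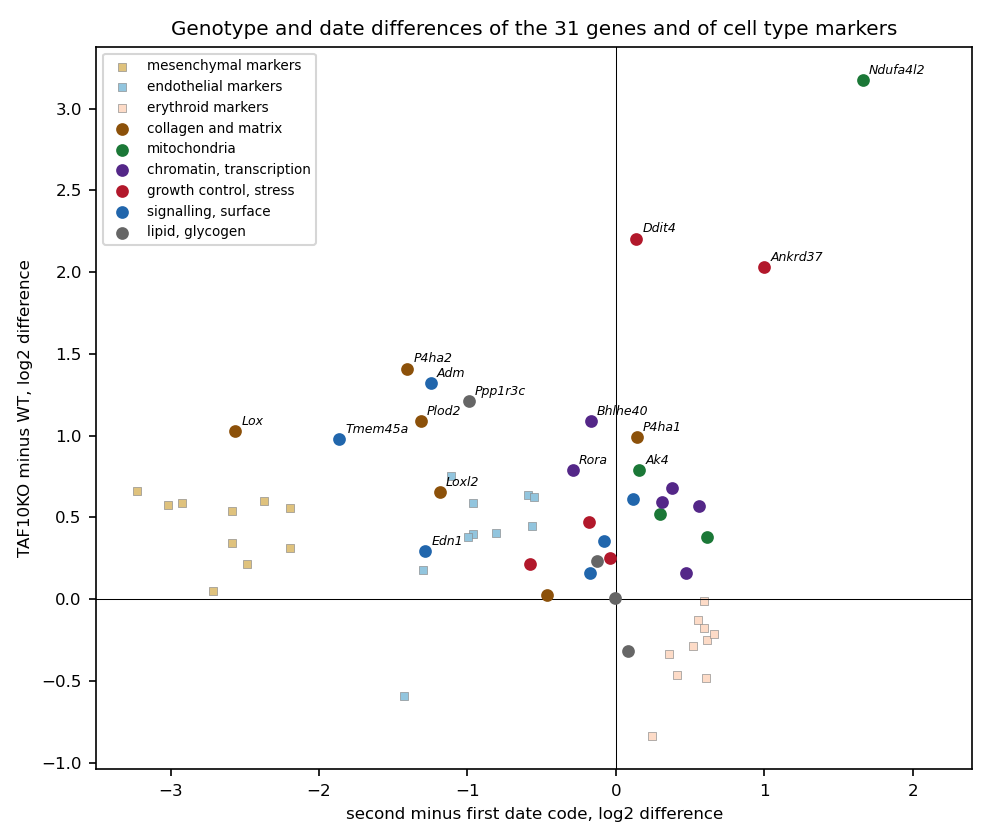
Fitted log2 difference of TAF10KO from WT (vertical axis) against that of the second from the first date code (horizontal axis), for the 31 genes as circles coloured by role and for 3 lists of 10 cell type markers as squares. Mesenchymal markers lie at the far left, at or below -2.20 by date and between 0.05 and 0.66 by genotype. Ndufa4l2 and Ankrd37 lie at the upper right, and Lox is the circle nearest to the mesenchymal markers.

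Close relatives of the members gave a comparison within gene families, although some of them, such as Bhlhe41, also answer to hypoxia. Of 45 paralogues 38 were tested, and 0 were called between TAF10KO and WT, where 0.481% of all genes were called higher and 0.127% lower. Against TAF10HET 3 paralogues were called higher and 1 lower (1.15% and 0.456% of all genes). The median difference of the paralogues from WT was 0.12, against 0.61 for the members. Of the 42 pairs of a member and a tested paralogue, the member had the higher difference in 30. Ndufa4, the housekeeping relative of Ndufa4l2, was at 180 CPM in WT and 148 CPM in TAF10KO, a difference of -0.30 (SE 0.135, adjusted p = 0.295 by edgeR). P4ha3 differed by -0.02, Kdm3b by 0.24 and Ak3 by -0.09.

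In the remaining 12 pairs the paralogue had the higher difference, and 3 of these paralogues are given here. Adm2 averaged 2.29 CPM in WT and 9.19 CPM in TAF10KO, a difference of 1.90 (SE 0.378, adjusted p = 0.0819 by edgeR), above the 1.32 of Adm. Bhlhe41 differed by 1.71 (SE 0.544, adjusted p = 0.179) at under 1 CPM on average in each group, and Ndrg2 by 0.87 (SE 0.158, adjusted p = 0.0636) against 0.25 for Ndrg1. These 3 were singled out after their values were seen.

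**Figure D4:**
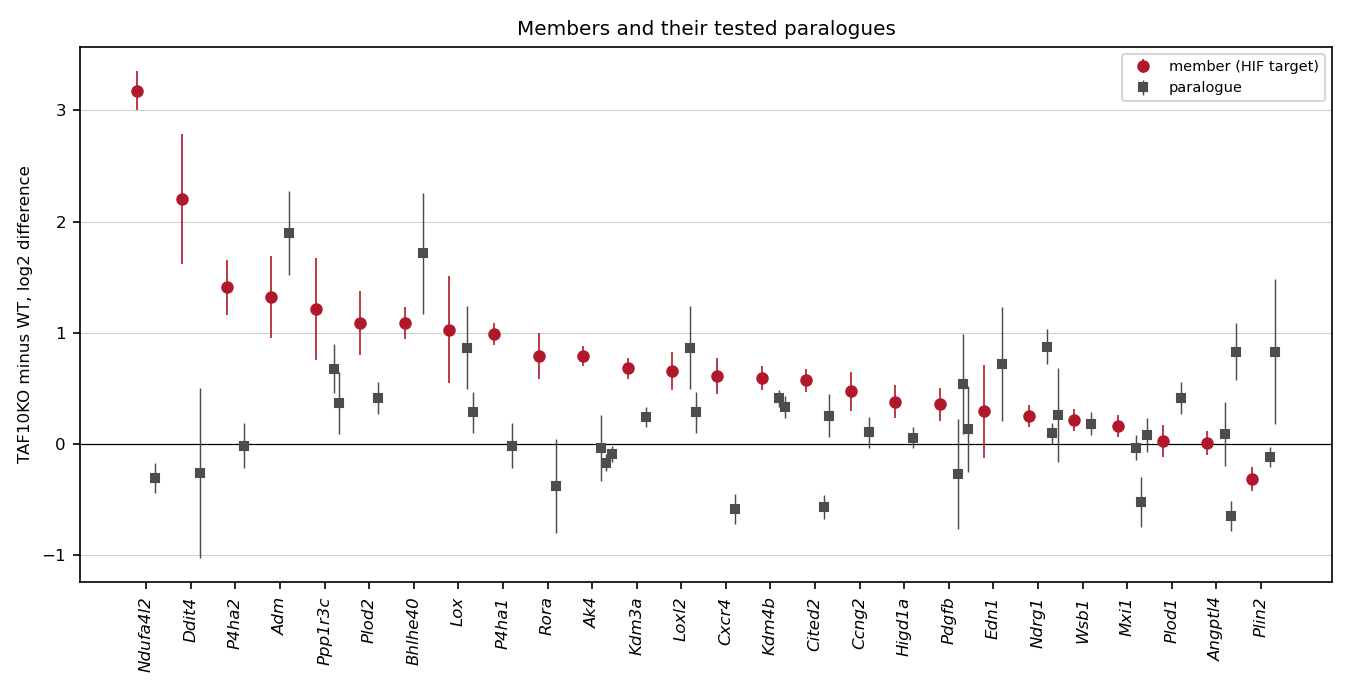
Fitted log2 difference of TAF10KO from WT for members with a tested paralogue (red circles) and for those paralogues (dark squares), with bars of 1 SE. Members are ordered by their difference. The member lies above its paralogue in 30 of 42 pairs, with the widest gap for Ndufa4l2 and Ndufa4.

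The rest of the HIF pathway was read in the same fit. Of 10 HIF subunits and oxygen sensors 2 rose in TAF10KO against WT, and the median was 0.07. Egln3, a prolyl hydroxylase that HIF itself induces, was at 6.12 and 8.40 CPM in WT, at 7.50, 7.93 and 7.98 CPM in TAF10HET and at 21.1 and 37.9 CPM in TAF10KO. It rose by 2.00 on the log2 scale (SE 0.188, adjusted p = 0.0102 by edgeR). Egln1, the main oxygen sensor, averaged 38.1 CPM in WT and 69.2 CPM in TAF10KO (difference 0.87, SE 0.0885, adjusted p = 0.0129). Hif1a itself differed by -0.16 (adjusted p = 0.395), Epas1 by 0.39 (adjusted p = 0.228) and Arnt by 0.07 (adjusted p = 0.736), and these 3 subunits were chosen after their values were seen.

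Of 17 glycolytic HIF targets 11 were higher in TAF10KO than in WT, with a median of 0.75. Pfkp, a phosphofructokinase, differed by 1.67, Aldoa by 1.41, Pkm by 1.30 and Pgk1 by 1.13, each with an adjusted p of 0.00458 by edgeR. Of 15 further HIF targets 6 were higher, with a median of 1.02. Among them were Stc2 (2.63), Igfbp1 (2.10), the mitophagy receptor Bnip3 (1.49) and the vessel growth factor Vegfa (1.27). Of 13 targets of ATF4, the factor of the amino acid and unfolded protein responses that also controls Ddit4, 4 were higher, with a median of 0.92. Slc7a11 (2.10), Vldlr (1.14), Sesn2 (0.93) and Mthfd2 (0.54) were those 4, and Vldlr is also known as a HIF target. The 11 immediate early and heat shock genes had a median of 0.60 with 0 called. The part of ATF4 or of handling in the member differences was not tested.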

How the data were processed

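The authors deposited 1 table of raw read counts by Ensembl identifier, without normalization, for each of 7 libraries (TruSeq version 2, per the labels' protocols). TopHat2 2.0.8, DESeq2 and the mm10 build were used, per the submitters' processing notes. How reads were assigned to genes (program, annotation, strand) is not given in the sources used here. Lines that name no gene were left out: reads in no gene were 6.81% to 10.1% of all reads listed, ambiguous reads 3.98% to 5.94% and reads not aligned uniquely 14.1% to 22.2%. GENCODE M21 matched 37693 of the 39017 gene identifiers, and the unmatched 1324 held 0.198% of the counts.

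The counts were fitted by edgeR 4.0.16 under R 4.3.3 (filterByExpr by group, TMM factors, robust quasi-likelihood F test, two-sided, Benjamini-Hochberg over 15800 genes, threshold 0.05) on all 7 libraries, with genotype and date code as terms and 3 residual degrees of freedom. The SE is the absolute log2 difference over the square root of F. CPM use TMM factors, log2 CPM a prior count of 2, and RPKM the union of GENCODE exons. Libraries were grouped by the genotype in the labels. Values within a date code are differences of log2 CPM. Libraries of different groups with the same date code deviated together from their group means (correlations across genes of 0.40 to 0.74 in 8 pairs, and -0.74 to -0.40 in 8 pairs of different codes), so the code was kept as a block. With groups of 2 libraries these deviations mirror each other by construction.

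The 31 members, the other gene lists and the date term were chosen with earlier results of these data known. All members were described. From each other list, up to 4 called genes with the smallest adjusted p were named, paralogues of called members could be named, and Taf10 was named as a check. Hif1a, Epas1, Arnt, Adm2, Ndrg2, genes overlapping members and markers called in other comparisons were named outside that rule. The values of a paralogue to which that rule also applied are not reported here. As alternatives, upper-quartile or median-of-ratios factors, DESeq2 1.42.0, every gene with a read, only genes at 5 CPM in 2 libraries, genotype as the only term, only the groups compared, embryo sex (male where Xist was under 10 CPM) as a further term, and each library left out were tried. The test was tried on simulated counts first. Counting error in a gene with few reads limits the precision, which was read from the SE.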

Additional observations from a re-analysis of the deposited data

How the results depend on the processing

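The direction of the members' median difference of TAF10KO from WT and from TAF10HET was above 0 under every alternative run, while the number of genes called was not stable. Median-of-ratios factors, upper-quartile factors and a filter of 5 CPM in 2 libraries left 6 genes higher against WT. The calls changed with the date code term: with genotype only, edgeR called 0 members against WT and 0 against TAF10HET. DESeq2 with genotype only, added after seeing the data, called 5 and 4. DESeq2 with the date code called 12 against WT and 16 against TAF10HET. No filter on low counts gave 19 in both comparisons, only the groups compared gave 14 and 3, and embryo sex as a further term gave 18 in both. Embryo sex as a term also called 1 member lower in each of the 3 genotype comparisons, and DESeq2 and no filter on low counts each called 1 lower against TAF10HET. No filter called 1 member higher in TAF10HET than in WT. For the interaction of genotype with date code, upper-quartile factors called 1 member, no filter 4 and the filter of 5 CPM 2. Apart from edgeR with genotype only, the number of all genes called under these settings is not given here. A change in the member calls therefore cannot be set against that of all genes. The cause of these differences was not tested.

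Leaving out 1 library gave 0 to 17 members called higher against WT and 1 to 18 against TAF10HET, with 0 to 1 lower there. By date code 3 to 8 were called higher. The number of all genes called changed in these fits too. Without TAF10KO replicate 1 or without TAF10KO replicate 2, more of all genes were called higher against WT and against TAF10HET than with all 7 libraries. The ranges of member calls are therefore not read as a result about the members. The median difference ran from 0.50 to 0.77 against WT, from 0.48 to 0.88 against TAF10HET, and from -0.115 to 0.0651 for TAF10HET against WT. The last, 0.00853 with the date code as a term, was -0.00181 with genotype only and -0.0517 with embryo sex as a further term.

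Of the members' differences from WT and by date code, those of 7 genes changed sign under some alternative. Against WT, Angptl4 was -0.00416 with embryo sex as a term, and without 1 library it ran from -0.0845 to 0.0873, Plod1 from -0.255 to 0.255, Nrn1 from -0.0872 to 0.356, Edn1 from -0.296 to 0.856 and Hilpda from -0.132 to 0.542. By date code, Angptl4 was 0.00567 with median-of-ratios factors and 0.00663 with DESeq2. Without 1 library it ran from -0.0739 to 0.0347, Ddit4 from -0.555 to 0.675, Hilpda from -0.364 to 0.128 and Plin2 from -0.00497 to 0.115. Depth limits Tmem45a, Edn1 and Ppp1r3c most, whose lowest libraries held 1, 6 and 6 reads.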
